A study of Mus musculus with 12 samples.

Results

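The genes described here are 10 that encode chaperones and quality-control proteases of mitochondria: Hspd1, Hspe1, Hspa9, Lonp1, Clpp, Clpx, Yme1l1, Afg3l2, Oma1 and Spg7. They were picked by name, with earlier results of these data known. Every probe set whose only gene symbol in the platform annotation is one of these names was taken. That gave 23 of the 45037 non-control probe sets on the array, and 20 of the 23 were bright enough to be tested. All 10 genes were among the 12136 genes tested. The cells were 3T3-L1 adipocytes, a clonal mouse fibroblast line turned into fat cells in culture. Every group shared a differentiation of 48 h in IBMX (0.5 mM), dexamethasone (1 µM) and insulin (5 µg/ml). The cells were used on days 8 to 10, and spent the last 12 h before treatment in serum-free medium with 0.2% bovine serum albumin. Groups of 3 arrays each received DMSO as the control, or berberine at 5 µM for 3, 6 or 12 h. Berberine is an alkaloid of barberry and related plants. The labels give no incubation time for DMSO, so that berberine and time in culture cannot be told apart, and they do not say whether arrays of a group came from separate cultures, so that the p-values describe these arrays' own spread, which may be technical.

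Most mitochondrial proteins are made in the cytosol, threaded unfolded through the import channels and folded in the matrix. Hspa9 (mortalin), the Hsp70 of the matrix, pulls precursors in, and the barrel of Hspd1 (Hsp60) with its lid Hspe1 (Hsp10) folds them. Damaged or surplus proteins are degraded in the matrix by Lonp1 and by the pair of Clpx, an unfoldase, and Clpp, its peptidase. In the inner membrane the same task falls to Yme1l1, whose active site faces the intermembrane space. It also falls to the m-AAA protease, which faces the matrix and has Afg3l2 and Spg7 (paraplegin) among its subunits. Oma1 is a stress-activated inner-membrane metalloprotease that, with Yme1l1, cleaves the fusion protein Opa1. Berberine is known as an inhibitor of respiratory complex I, and loss of mitochondrial function is known in mammalian cells to raise Atf4, Atf5 and Ddit3 (CHOP), transcription factors that have been linked to the genes of mitochondrial chaperones and proteases.

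The promoters of the chaperonin genes and of Lonp1 are shown because these are the genes most often used as readouts of that transcriptional response. Hspd1 and Hspe1 lie head to head on chromosome 1, and the letters between the RefSeq start of Hspd1 at 55087932, on the minus strand, and that of Hspe1 at 55088148, on the plus strand, number 215. RefSeq has a second Hspd1 start at 55088243, beyond that of Hspe1. The stretch is given 5′ to 3′ on the plus strand of GRCm38.p6, chr1:55087933-55088147, and the upstream 250 bases of Lonp1 on its own, minus, strand, chr17:56626904-56627153. Capitals mark matches to the 4 motifs searched.
Hspd1-Hspe1: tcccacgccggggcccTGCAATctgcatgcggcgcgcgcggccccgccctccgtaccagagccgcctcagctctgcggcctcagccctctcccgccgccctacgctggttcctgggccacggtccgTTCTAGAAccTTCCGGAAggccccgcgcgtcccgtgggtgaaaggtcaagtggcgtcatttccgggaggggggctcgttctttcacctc
Lonp1: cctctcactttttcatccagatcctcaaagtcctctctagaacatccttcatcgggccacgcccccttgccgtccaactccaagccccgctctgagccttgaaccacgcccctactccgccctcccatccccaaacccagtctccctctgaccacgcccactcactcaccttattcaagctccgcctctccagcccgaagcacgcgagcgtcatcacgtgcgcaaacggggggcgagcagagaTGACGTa
The motifs, searched on both strands, were TTCNNGAA (heat shock element core), TGCAAT or ATTGCA (CHOP element core), TGACGT or ACGTCA (cyclic AMP response element core) and TGATGNAA or TTNCATCA (composite element of C/EBP and ATF factors). The chaperonin stretch held TTCNNGAA 2 times, as TTCTAGAA and TTCCGGAA, and TGCAAT 1 time, with no overlap between matches. The Lonp1 window held TGACGT, at bases 7 to 2 before the start. Among 32817 windows of 250 bases before mouse gene starts, TTCNNGAA occurred in 7.16%, TGCAAT in 7.32%, TGACGT in 6.46% and TGATGNAA in 3.45%. The windows of Clpp, Clpx, Yme1l1, Oma1 and Spg7 held none of the 4 motifs, nor did that of the second Hspd1 start. Those of Hspa9 and Afg3l2 were not used here. A match is a match of letters only, and binding was not measured.

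The deposited values are log2 signals of the MAS5 method, scaled to the same mean on every array. A probe set was tested where at least 3 of the 12 arrays reached a log2 signal of 5.77, the median of the array, and 47.9% to 51.6% of probe sets reached it on each array. Of 10 adipocyte markers, 8 had a tested probe set and all 8 were above that level on all arrays, Fabp4 and Adipoq among them. Their summed linear signal, in which the brightest genes weigh most, ranged over 177013 to 223643 in DMSO and 200576 to 226257 at 3 h. It ranged over 215337 to 238136 at 6 h and 190400 to 209711 at 12 h. Against DMSO, 0 of the 8 were called higher and 1 lower (Cidec) at 3 h, and 4 higher and 1 lower at 6 h. At 12 h Lpl was called higher (log2 change 0.32) and 3 lower, Cidec (-1.44), Retn (-0.51) and Slc2a4 (-0.31). Of all tested genes, 1.09% were called higher and 0.816% lower at 3 h, and 7.24% and 6.98% at 6 h. At 12 h the shares were 13.7% and 14.6%. Adipoq was at 15.05 and 15.06 on DMSO replicates 1 and 2 and at 15.49 on DMSO replicate 3, which lay among the berberine arrays, as it did for Hspd1 below. All 6 fibroblast markers were above the level too, with sums of 58341 to 67778 in DMSO, 66652 to 71871 at 3 h, 66111 to 69686 at 6 h and 65693 to 68202 at 12 h, and 1 was called higher and 2 lower at 6 h and at 12 h alike. Of 5 macrophage markers 2 averaged above it, with sums of 260 to 293 in DMSO, 265 to 333 at 3 h, 290 to 401 at 6 h and 256 to 313 at 12 h, and Ptprc and Itgam reached it on 0 arrays. Of 4 endothelial markers 0 averaged above it, with sums of 83 to 125, 76 to 172, 55 to 142 and 65 to 134 in the same order of groups. The part of these markers in the results below was not tested, and in bulk RNA fewer cells of a type and less RNA per cell cannot be told apart.

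After 12 h of berberine the members did not move as a block. Hspa9, Yme1l1 and Clpp were higher than in DMSO, by 1.46-fold, 1.29-fold and 1.17-fold, and Oma1 and Clpx were lower, by 1.41-fold and 1.25-fold. The remaining 5, Hspd1, Hspe1, Lonp1, Afg3l2 and Spg7, did not pass the test (limma, adjusted p under 0.05 over all genes tested). Thus 3 of 10 were called higher and 2 of 10 lower, beside 13.7% of all tested genes called higher and 14.6% called lower. The median change of the members was 0.16 on the log2 scale and that of all tested genes -0.01. At 6 h Hspa9 and Yme1l1 were called higher and 0 members lower, beside 7.24% of all genes higher and 6.98% lower. At 3 h limma called 0 members in either direction, beside 1.09% of all genes higher and 0.816% lower. An unadjusted p under 0.05 was reached by 2, 6 and 9 of the 10 members at 3, 6 and 12 h, beside 13.6%, 26.6% and 38% of all tested genes. All 3 comparisons use the same 3 DMSO arrays. The moderated F test over the 4 groups called 6 of 10 members, Hspa9, Oma1, Yme1l1, Clpx, Lonp1 and Spg7, beside 25.1% of all genes.

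**Figure D1:**
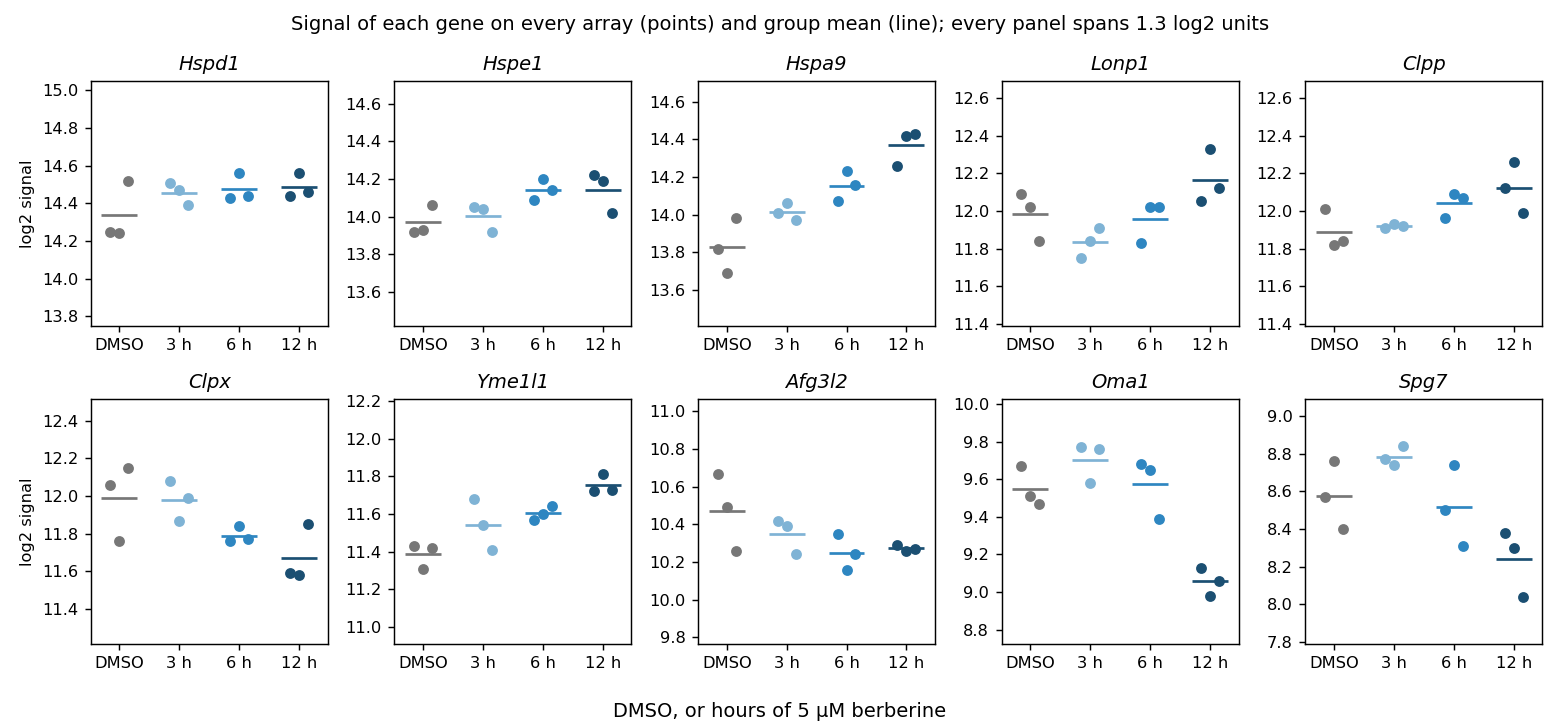
Log2 signal of each member on each array (points) by group, with the group mean (line), 3 arrays per group, and a separate vertical scale for each gene. Hspa9 and Yme1l1 lie above all DMSO arrays at 6 and 12 h, and Oma1 and Spg7 lie below all DMSO arrays at 12 h.

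Hspa9 had the largest increase of the members at 12 h. Its log2 signal was 13.82, 13.69 and 13.98 in DMSO, 14.01, 14.06 and 13.97 at 3 h, 14.07, 14.23 and 14.16 at 6 h, and 14.26, 14.42 and 14.43 at 12 h. The 6 h and 12 h arrays all lay above the highest DMSO array, while the 3 h arrays reached down to it. The change against DMSO was 0.19 (SE 0.07, limma adjusted p = 0.228) at 3 h, 0.33 (SE 0.07, adjusted p = 0.00585) at 6 h and 0.54 (SE 0.07, adjusted p = 2.19e-05) at 12 h. The 6 h call ended when the probe sets of each gene were averaged (adjusted p = 0.078). Hspa9 is given by RefSeq at chr18:34937414-34954351 on GRCm38.p6.

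The chaperonin genes did not pass the test at any time against DMSO. Hspd1 (chr1:55077833-55088243) had log2 signals of 14.25, 14.24 and 14.52 in DMSO, 14.51, 14.47 and 14.39 at 3 h, 14.43, 14.56 and 14.44 at 6 h, and 14.44, 14.56 and 14.46 at 12 h. The third DMSO array stood among the berberine arrays, and the other 2 lay below all of them. The change at 12 h was 0.15 (SE 0.07, limma adjusted p = 0.138). Hspe1 (chr1:55088148-55091317) averaged 14.14 ± 0.11 at 12 h and 13.97 ± 0.08 in DMSO (SD, n = 3 each), a change of 0.17 (SE 0.07, adjusted p = 0.0604). Its 3 arrays at 6 h, at 14.09, 14.20 and 14.14, lay above the DMSO arrays, at 13.92, 13.93 and 14.06, with a change of 0.17 and an adjusted p of 0.0864. Without DMSO replicate 3 both genes were called higher, Hspd1 by 0.24 at 6 h (adjusted p = 0.0158) and 0.25 at 12 h (adjusted p = 0.00616), and Hspe1 by 0.22 at both times (adjusted p = 0.0438 at 6 h and 0.0255 at 12 h). Hspe1 was also called at 12 h without berberine 12 h replicate 3 (0.23, adjusted p = 0.0161). A high DMSO replicate 3 was not particular to these genes. DMSO replicates 1, 2 and 3 were at 15.55, 15.47 and 15.83 for Fabp4 and at 15.04, 15.03 and 15.46 for Lpl. For Col3a1 they were at 14.94, 14.92 and 15.25. Other bright genes, such as Hspa8 (13.71, 14.03 and 13.19) and Hsp90aa1 (13.82, 13.91 and 13.73), were lowest on replicate 3. The cause was not tested. The second Hspe1 probe set had a change of -0.08 at 12 h (SE 0.08, adjusted p = 0.562 over probe sets), of opposite sign. Both genes have processed pseudogenes of near-identical sequence, so that the source of their probe signal is uncertain.

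The matrix proteases went different ways. Lonp1 (chr17:56614297-56626903) had log2 signals of 12.09, 12.02 and 11.84 in DMSO, 11.75, 11.84 and 11.91 at 3 h, 11.83, 12.02 and 12.02 at 6 h, and 12.05, 12.33 and 12.12 at 12 h. The groups overlapped with DMSO at each time, and the change was -0.15 (SE 0.08, limma adjusted p = 0.462) at 3 h and 0.18 (SE 0.08, adjusted p = 0.119) at 12 h.

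Clpp (chr17:56990264-56996371), the peptidase, was at 12.12, 12.26 and 11.99 at 12 h, against 12.01, 11.82 and 11.84 in DMSO. The groups overlapped by 1 array on each side, and the change of 0.23 (SE 0.07) had an adjusted p of 0.0223. The call ended without DMSO replicate 2 (adjusted p = 0.0792), DMSO replicate 3 (0.0712), berberine 12 h replicate 1 (0.0533) or berberine 12 h replicate 2 (0.132). It also ended without the intensity trend of the variance model (0.0653) and with the arrays of these 2 groups alone (0.0555). Clpx (chr9:65294251-65330658), the unfoldase, was at 11.59, 11.58 and 11.85 at 12 h, against 12.06, 11.76 and 12.15 in DMSO. Here too 1 array of each group crossed over, and the change of -0.32 (SE 0.09) had an adjusted p of 0.0152. That call ended without DMSO replicate 1 (adjusted p = 0.0649), DMSO replicate 3 (0.0822), berberine 12 h replicate 1 (0.066) or berberine 12 h replicate 2 (0.0699). It also ended without the intensity trend (0.0678) and when the Clpx probe sets were averaged, which gave -0.14 (adjusted p = 0.591). At 6 h, Clpx was called lower without DMSO replicate 2 (-0.32, adjusted p = 0.0223), against -0.20 and an adjusted p of 0.175 with all arrays.

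The difference Clpp minus Clpx within each array, examined after these values were seen, was 0.53, 0.68 and 0.14 at 12 h, against -0.06, 0.06 and -0.31 in DMSO. At 6 h it was 0.20, 0.24 and 0.30, again above the 3 DMSO arrays. Neither set overlapped with DMSO. The pair was picked because its calls differed in direction, so no test is given, and the difference is between probe signals and not the ratio of the transcripts.

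The inner-membrane proteases held the clearest lower member. Oma1 (chr4:103311875-103371869) had log2 signals of 9.67, 9.51 and 9.47 in DMSO, 9.77, 9.58 and 9.76 at 3 h, 9.68, 9.65 and 9.39 at 6 h, and 9.13, 8.98 and 9.06 at 12 h. The 3 arrays at 12 h lay below all the others, and the other 9 overlapped. Oma1 is measured by 1 probe set, so that no other probe set could be compared. Its change at 12 h against DMSO was -0.49 (SE 0.10, limma adjusted p = 0.0012), whereas at 6 h it was 0.02 with an adjusted p of 0.919. Yme1l1 (chr2:23155442-23199260) went the other way, with 11.43, 11.31 and 11.42 in DMSO, 11.68, 11.54 and 11.41 at 3 h, 11.57, 11.60 and 11.64 at 6 h, and 11.72, 11.81 and 11.73 at 12 h. All arrays at 6 and 12 h lay above the DMSO arrays. The change was 0.22 (SE 0.07, adjusted p = 0.0453) at 6 h and 0.37 (SE 0.07, adjusted p = 0.000674) at 12 h. The 6 h call ended when any 1 of 10 arrays was left out, all but berberine 3 h replicates 1 and 3, with adjusted p between 0.0504 and 0.145. Averaging its probe sets ended both calls, with 0.14 at 6 h (adjusted p = 0.262) and 0.17 at 12 h (adjusted p = 0.106).

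Yme1l1 minus Oma1 within each array, also examined after the values were seen, was 2.59, 2.83 and 2.67 at 12 h, against 1.77, 1.80 and 1.95 in DMSO. The groups were apart by 0.86 in their means, whereas the mean differed from that of DMSO by 0 at 3 h and by 0.19 at 6 h. This pair was picked in the same way and has no test.

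The m-AAA protease subunits among the members, Spg7 and Afg3l2, did not pass the test against DMSO at any time. Spg7 (chr8:123065508-123097760) was at 8.38, 8.30 and 8.04 at 12 h, against 8.57, 8.76 and 8.40 in DMSO. The 12 h arrays lay below the DMSO arrays, with 0.02 between the nearest pair, and the change of -0.34 (SE 0.14) had an adjusted p of 0.0792. Afg3l2 (chr18:67404764-67449192) averaged 10.27 ± 0.02 at 12 h and 10.47 ± 0.20 in DMSO (SD, n = 3 each), a change of -0.20 (SE 0.09, adjusted p = 0.122). Without DMSO replicate 3, which was the lowest DMSO array for Afg3l2 and Spg7, Afg3l2 was called lower at 6 h (-0.33, adjusted p = 0.0252) and 12 h (-0.31, adjusted p = 0.0188) and Spg7 at 12 h (-0.43, adjusted p = 0.048).

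**Figure D2:**
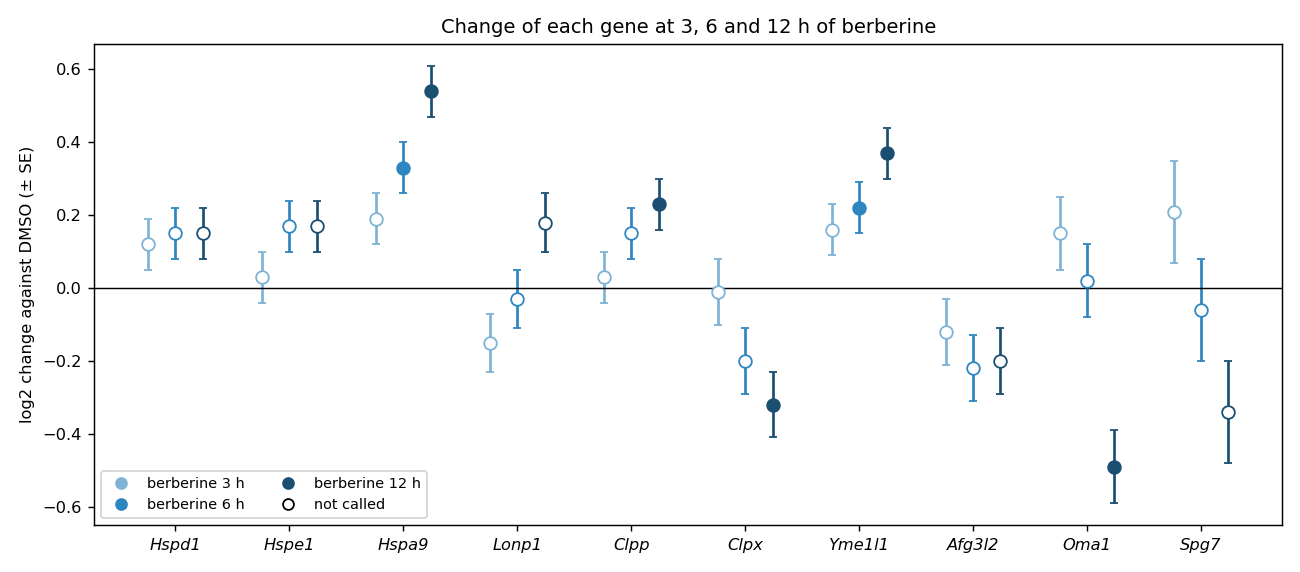
Log2 change of each member against DMSO at 3, 6 and 12 h, with limma's standard error as bars and filled points where the adjusted p is under 0.05. Hspa9 reaches 0.54 and Oma1 -0.49 at 12 h, while 0 members are called at 3 h.

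Over the members, 0, 3 and 4 of 10 had groups that did not overlap with DMSO at 3, 6 and 12 h, beside 19%, 29.9% and 39.4% of all tested genes, so that the shares at 6 and 12 h were near the background. The members that did not overlap were Hspa9, Yme1l1 and Hspe1 at 6 h, and Hspa9, Yme1l1, Oma1 and Spg7 at 12 h.

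The berberine times were then set against each other, which does not involve the DMSO arrays except in the shared estimate of spread. Between 12 h and 3 h, 3 of 10 members were called higher and 3 lower, beside 8.01% of all genes higher and 9.71% lower. Hspa9 was higher by 0.35 (SE 0.07, limma adjusted p = 0.00218), Lonp1 by 0.33 (SE 0.08, adjusted p = 0.00997) and Yme1l1 by 0.21 (SE 0.07, adjusted p = 0.0449). Oma1 was lower by 1.56-fold, a change of -0.65 (SE 0.10, adjusted p = 0.000205). Spg7 was at 8.38, 8.30 and 8.04 at 12 h, against 8.77, 8.74 and 8.84 at 3 h, with no overlap and a change of -0.55 (SE 0.14, adjusted p = 0.01). Clpx changed by -0.31 (SE 0.09, adjusted p = 0.0277). Lonp1 and Spg7, which were not called against DMSO at any time, thus differed between the first and last berberine time.

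Some of these calls rested on single arrays. Lonp1 was not called without berberine 3 h replicate 1 (adjusted p = 0.0519) or berberine 12 h replicate 2 (0.0657). Spg7 was not called without berberine 12 h replicate 3 (0.0501). Clpx was not called without berberine 3 h replicate 1 (0.12), berberine 3 h replicate 3 (0.0759), berberine 12 h replicate 1 (0.107) or berberine 12 h replicate 2 (0.115), nor with its probe sets averaged (0.0677). Without the intensity trend neither Clpx (0.105) nor Lonp1 (0.0548) was called, and with median centring Clpx was not called (0.0715). The Yme1l1 call ended when any 1 of 9 arrays was left out, all but DMSO replicates 2 and 3 and berberine 3 h replicate 1, with adjusted p between 0.0513 and 0.212. With its probe sets averaged, the Yme1l1 change between 12 h and 3 h was 0.01 (adjusted p = 0.949). In the fit of probe sets it was 0.21 (adjusted p = 0.0617), -0.02 and -0.16 for the 3 probe sets, and none was called. Clpp, at 0.20 and an adjusted p of 0.0654 with all arrays, was called higher without berberine 12 h replicate 3 (0.26, adjusted p = 0.0209). The calls of Hspa9 and Oma1 between 12 h and 3 h held whichever array was left out.

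Between 12 h and 6 h the only member called was Oma1, which was lower by 1.43-fold (a change of -0.52, SE 0.10, adjusted p = 0.00522), beside 2.5% of all genes higher and 3.18% lower. Hspa9 was at 0.22 with an adjusted p of 0.0918, and was called without DMSO replicate 3 (0.22, adjusted p = 0.0432). Between 6 h and 3 h limma called 0 members, beside 1.19% of all genes higher and 1.15% lower. An unadjusted p under 0.05 was reached by 1 member between 6 h and 3 h, 4 between 12 h and 6 h and 7 between 12 h and 3 h, beside 15.9%, 19.2% and 29.9% of all tested genes. Against DMSO, Oma1 had adjusted p of 0.549 at 3 h and 0.919 at 6 h, and between consecutive berberine times it was called from 6 to 12 h only.

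Several members are measured by more than 1 probe set. Their positions on the transcripts were not examined, so that probe sets of a gene may not be independent of each other. Hspd1, Lonp1 and Oma1 have only 1 each on the array. Fitted as separate features, 7 of the 20 tested probe sets of members were called higher at 12 h and 2 lower, beside 11.5% and 11.8% of all 25053 tested probe sets. All 4 tested Hspa9 probe sets were called higher. The one that stood for the gene, 1418504_at, had a change of 0.54, and 1418503_at had 0.32 (SE 0.06, adjusted p = 0.000908). The probe set 1447728_x_at had 0.36 (SE 0.11, adjusted p = 0.0233). The fourth, 1431274_a_at, was at 6.94, 7.43 and 7.39 at 12 h, against 6.06, 6.14 and 6.28 in DMSO, a change of 1.09 (SE 0.35, adjusted p = 0.0307). Both Clpp probe sets were called higher, by 0.23 (adjusted p = 0.0305) and 0.20 (adjusted p = 0.0477).

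For 2 genes with a call at 12 h, Yme1l1 and Clpx, the other probe sets were not called. Of the 3 Yme1l1 probe sets only 1423361_at was called (0.37, adjusted p = 0.00115), while 1450954_at had 0.18 (SE 0.09, adjusted p = 0.154) and 1423360_at had -0.03 (SE 0.10, adjusted p = 0.856). Of the 2 Clpx probe sets, 1423447_at was called lower (-0.32, adjusted p = 0.0214), while 1439342_at, at 6.07, 6.40 and 6.78 at 12 h, against 5.57, 6.81 and 6.74 in DMSO, had 0.04 (SE 0.33, adjusted p = 0.948). At 6 h 2 probe sets were called, both higher, 1418504_at of Hspa9 (0.33, adjusted p = 0.00874) and 1416615_at of Clpp (0.24, adjusted p = 0.0358). That Clpp probe set is not the one that stood for the gene. The 2 Hspe1 probe sets, at 0.17 and -0.08 at 12 h, differed in sign and were not called. The 3 Afg3l2 probe sets had changes of -0.20, -0.06 and 0.13 at 12 h, and none was called (adjusted p of 0.147, 0.773 and 0.819). A further probe set each of Hspa9, Yme1l1 and Spg7 was not tested, since 2, 1 and 1 arrays reached the level of 5.77.

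**Figure D3:**
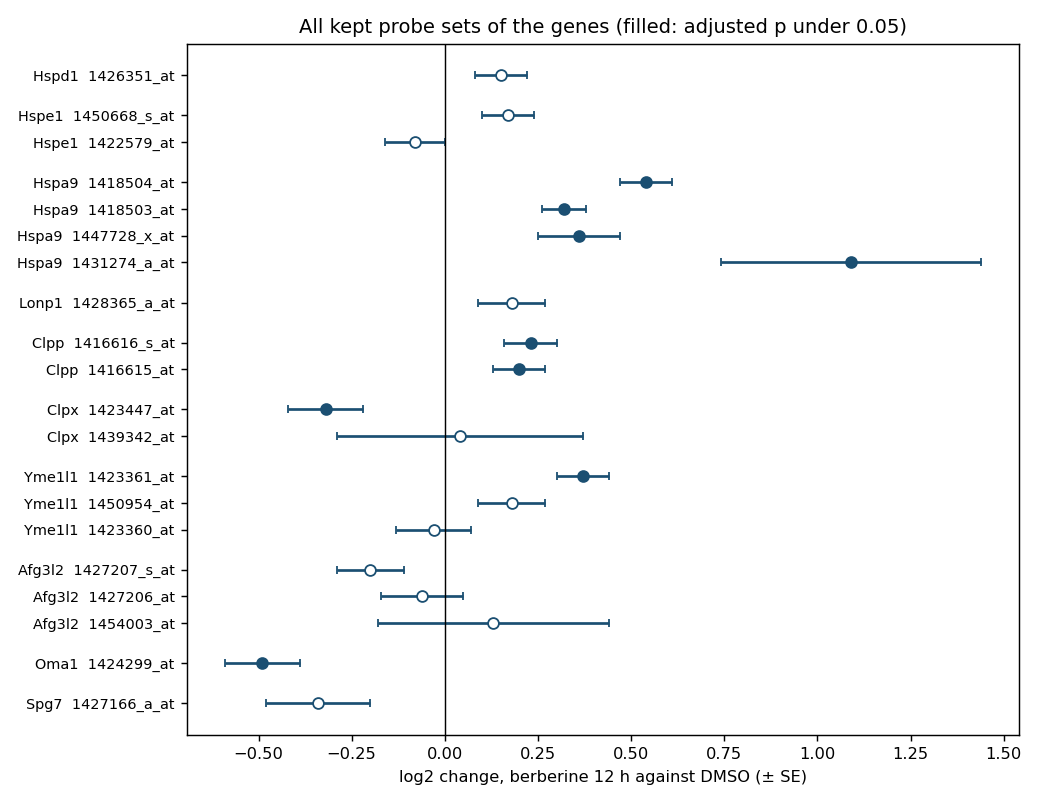
Log2 change at 12 h of berberine against DMSO of the 20 tested probe sets of the members, with limma's standard error as bars and filled points where the adjusted p over all tested probe sets is under 0.05. All 4 Hspa9 and both Clpp probe sets are called higher, whereas 1 of 3 for Yme1l1 and 1 of 2 for Clpx are called.

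The surroundings of the members were described with 5 lists of genes from knowledge of the pathway. They are set beside the all-gene shares and the all-gene median of -0.01 given for 12 h. The lists, like the members, were chosen with earlier results of these data known. Of 13 tested partners in import and folding, 3 were called higher and 1 lower at 12 h, with a median change of 0. Grpel2, a nucleotide exchange factor of Hspa9, averaged 10.24 at 12 h and 9.56 in DMSO, a change of 0.68 (SE 0.14, limma adjusted p = 0.00179), which the average of its probe sets did not show (0.18, adjusted p = 0.495). Dnaja3, a matrix J-protein that works with Hspa9, was at 12.21, 12.21 and 12.14 at 12 h, against 11.84, 11.71 and 11.92 in DMSO, a change of 0.37 (SE 0.06, adjusted p = 0.000324). Hscb, a J-protein of iron-sulfur cluster assembly, was higher by 0.31 (adjusted p = 0.017), but was not called without DMSO replicate 1 (0.081) or berberine 12 h replicate 2 (0.105). Dnajc15, a J-protein of the import motor, was lower at -0.21 (adjusted p = 0.0273), but was not called without DMSO replicate 1 (0.0762), DMSO replicate 2 (0.0751) or berberine 12 h replicate 3 (0.131).

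Of 14 other mitochondrial peptidases and scaffolds, 3 were called higher and 3 lower at 12 h, with a median of -0.13. The lower genes were Bcs1l, an AAA protein of complex III assembly (-0.38, SE 0.08, adjusted p = 0.00162), Atad3a, an inner-membrane ATPase (-0.31, SE 0.08, adjusted p = 0.00901), and Pmpca, a subunit of the presequence peptidase (-0.25, SE 0.06, adjusted p = 0.00601). Pitrm1, which degrades cleaved presequences, was higher by 0.24 (SE 0.06, adjusted p = 0.00875). When the probe sets of a gene were averaged, Atad3a (adjusted p = 0.232), Pmpca (0.0668) and Pitrm1 (0.543) were not called.

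The regulators Ddit3, Atf4 and Atf5 changed by more at 12 h than any member. Ddit3, a stress transcription factor, had log2 signals of 11.80, 11.81 and 11.78 in DMSO, 12.70, 12.57 and 12.60 at 3 h, 13.60, 13.66 and 13.79 at 6 h, and 14.17, 14.27 and 14.19 at 12 h. The groups were fully apart, and the 12 h change was 2.42 (SE 0.06, limma adjusted p = 2.23e-14). At 3 h the change was 0.83 (adjusted p = 5.56e-07), and with its probe sets averaged it was 1.29 and not called (adjusted p = 0.0806). Atf4, which activates Ddit3 and amino acid genes, had changes of 0.72 at 3 h, 1.38 at 6 h and 1.43 at 12 h (adjusted p of 8.46e-06, 6.09e-10 and 1.62e-10). Atf5, a factor linked to the mitochondrial unfolded protein response, was not called at 3 h (-0.10, adjusted p = 0.617) and was higher by 0.29 at 6 h (adjusted p = 0.0126) and 0.68 at 12 h (SE 0.07, adjusted p = 1.86e-06). Its 6 h call ended without DMSO replicate 3 (0.0557), berberine 6 h replicate 3 (0.0672) or the intensity trend (0.0559). In all, 2 of 9 tested regulators and substrates were called higher at 3 h, 3 at 6 h and 4 at 12 h, with 0, 0 and 1 called lower and a 12 h median of 0.17.

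The fourth gene called higher was Pgam5, a mitochondrial phosphatase (0.28, SE 0.07, adjusted p = 0.00426). Dele1, which in human cells is cleaved by OMA1 and relays mitochondrial stress to ATF4, had a change of 0.17 at 12 h (SE 0.17, adjusted p = 0.504). Opa1, the fusion protein cut by Oma1 and Yme1l1, was called lower at 12 h (-0.19, SE 0.07, adjusted p = 0.0491), a call that held in 6 of 21 other settings and ended without DMSO replicates 2 (0.184) or 3 (0.114), berberine 3 h replicates 1 (0.0608), 2 (0.063) or 3 (0.0582), berberine 6 h replicate 3 (0.0555), or berberine 12 h replicates 1 (0.13) or 2 (0.149).

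**Figure D4:**
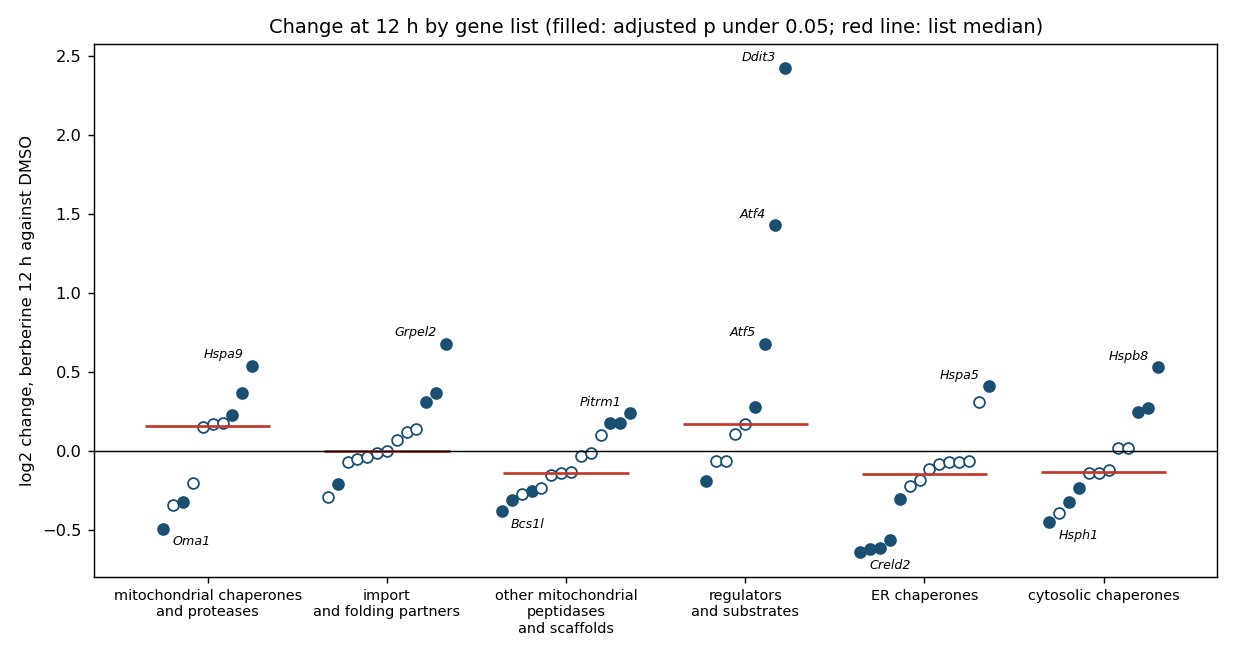
Log2 change at 12 h of berberine against DMSO of each member and each tested gene of 5 lists (points), with the median of each set in red. The members range from -0.49 to 0.54, and Ddit3 at 2.42 lies beyond all of them.

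Chaperones of other compartments were counted for comparison. Of 14 ER chaperones 1 was called higher and 5 lower at 12 h, with a median of -0.14. The lower genes included Creld2, a secreted ER stress protein (-0.64, SE 0.08, limma adjusted p = 1.97e-05), and Sdf2l1, an ER-resident stress protein (-0.61, SE 0.13, adjusted p = 0.00139). Dnajb9 (-0.62, SE 0.06, adjusted p = 4.65e-07) and Dnajc3 (-0.56, SE 0.09, adjusted p = 0.000182), J-protein partners of the ER Hsp70, were lower too. That Hsp70, Hspa5 (BiP), was the gene called higher (0.41, SE 0.09, adjusted p = 0.0019), and it is named here after its value was seen. Its DMSO arrays were at 14.28, 14.12 and 14.60, the third again the highest, and without that array it was also called at 3 h (0.28, adjusted p = 0.0364) and 6 h (0.26, adjusted p = 0.0165). Of 12 tested cytosolic chaperones 3 were called higher and 3 lower, with a median of -0.13. Hspb8, a small heat shock protein, was higher by 0.53 (SE 0.10, adjusted p = 0.000755). Hsph1, an exchange factor of cytosolic Hsp70, was lower (-0.45, SE 0.10, adjusted p = 0.00233), as was Hspa1b, an inducible Hsp70 with a near-identical copy that may share its probe signal (-0.32, SE 0.06, adjusted p = 0.000901). Hspa4, another exchange factor, was higher by 0.27 (adjusted p = 0.00395), but its probe sets averaged gave -0.64 (adjusted p = 3.78e-05). No test was made of a list against another list or against the members.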

How the data were processed

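The data are 12 single-colour Affymetrix 3′ arrays, 3 for each of 4 groups taken from the labels. The authors deposited log2 signals of 45101 probe sets, 64 of them controls. Per the submitters' processing notes MAS5 was used. Its release is not given in the sources used here. On every array the linear 2% trimmed mean was 500.004. MAS5 multiplies all signals of an array by the same number. It leaves any bias tied to brightness in place, and its dim values are noisy. Scanner files and detection calls were not used here.

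Probe sets at or above the median non-control value (5.77 on the log2 scale, a linear signal of 54.6) on at least 3 arrays were kept, 25053 in all. The platform annotation gave 1 symbol to 34945, several to 932 and none to 9160 probe sets. Identifiers of 34741 matched RefSeq's gene table, with 0 symbols changed. The kept probe set with the highest mean stood for a gene (those ending in _x_at came last in that choice), which gave 12136 genes. The test was limma's, version 3.58.1 under R 4.3.3 (group means of the 12 arrays in 1 fit, leaving 8 residual degrees of freedom, two-sided, eBayes with trend = TRUE, Benjamini-Hochberg adjustment over all genes, or over all kept probe sets for the fit of probe sets). Each berberine time was set against DMSO and against each other berberine time, and a call is an adjusted p under 0.05. A fold is a ratio of geometric mean signals. The script was tested on simulated data. Promoter letters and coordinates are RefSeq's for GRCm38.p6, and 8 of the 10 genes had a window that was used. Plots came from matplotlib 3.10.9 under Python 3.11.15. The number of arrays limits the precision.

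The rule for named genes takes all 10 members, up to 4 called genes with the largest change at 12 h from each list, and Atf4, Atf5, Ddit3, Dele1 and Opa1 always. The members and lists were chosen with earlier results of these data known. Alternatives were quantile normalization, no filter, all 12 arrays at the threshold, dim values raised to the threshold, no intensity trend, the mean of a gene's probe sets, the replicate number as a block, the 2 groups only, each array left out in turn and, added after the data were seen, median centring.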

Additional observations from a re-analysis of the deposited data

Results flagged for a closer look

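Berberine times differed from each other in a direct test (limma, adjusted p under 0.05) for 6 members. The labels give no time for DMSO, so that berberine and time in culture cannot be told apart. Between 12 h and 3 h the log2 change was 0.35 for Hspa9, 0.33 for Lonp1, 0.21 for Yme1l1, -0.31 for Clpx, -0.65 for Oma1 and -0.55 for Spg7. Of all tested genes, 8.01% were called higher and 9.71% lower between these times. In 21 other settings the calls of Hspa9 and Oma1 held in all, that of Spg7 in 20 and that of Lonp1 in 18. The Clpx call held in 14 of the 21 and the Yme1l1 call in 7. The Yme1l1 change was 0.01 (limma adjusted p = 0.949) with its probe sets averaged. Between 12 h and 6 h the log2 change was -0.52 for Oma1, beside 2.5% of all genes called higher and 3.18% lower. Each group has 3 arrays, too few for the test of a single array standing apart.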

How the results depend on the processing

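In 21 alternative settings the 12 h calls of Hspa9 (change 0.47 to 0.62) and Oma1 (-0.53 to -0.43) held in all, and that of Yme1l1 in 20. The setting that ended the Yme1l1 call was the mean of a gene's probe sets. Oma1 has 1 probe set, so that this setting left its values as they were. Of the 10 members, the number called at 12 h against DMSO was 5, but 3 when a gene's probe sets were averaged and 3 when the intensity trend was dropped. It was 2 at 6 h, but 1 without a filter, 1 without the intensity trend, 1 with the replicate block, 1 with the 2 groups only, 1 with median centring (added after seeing the data) and 0 with the mean of a gene's probe sets. Between 12 h and 3 h it was 6, but 3 without the intensity trend. Between 12 h and 6 h it was 1, but 2 with quantile normalization, which added Hspa9 (0.28, adjusted p = 0.0094). In the F test it was 6, but 3 without the intensity trend. Calls of member probe sets, counted once for each contrast with DMSO, were 11, but 4 without that trend. Both probe sets called at 6 h were also called at 12 h and so count at each time. With each array left out in turn, these counts ranged over 3 to 7 at 12 h and 1 to 4 at 6 h. They ranged over 3 to 6 between 12 h and 3 h and 1 to 2 between 12 h and 6 h. The F test gave 3 to 8, and calls of probe sets over the contrasts with DMSO numbered 6 to 11. The lowest count at 12 h came without berberine 12 h replicate 1 or 2. At 3 h against DMSO and between 6 h and 3 h it was 0 in every setting. With the replicate block Yme1l1 was not called at 6 h (adjusted p = 0.056) or between 12 h and 3 h (0.0562). Quantile normalization also called Hspe1 at 12 h (0.13, adjusted p = 0.0289). Hspa4 reversed with the mean of its probe sets, to -0.43 at 6 h (adjusted p = 0.0032) and -0.64 at 12 h (adjusted p = 3.78e-05). The cause was not tested for any of these.

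Over all genes, 231 were called at 3 h, 93 without the trend and 114 with averaged probe sets. At 6 h 1726 were called, 1099 with averaged probe sets. Between 6 h and 3 h 284 were called, 60 without the trend and 146 with averaged probe sets, and between 12 h and 6 h 690, 296 without the trend. Leaving out an array gave 117 to 266 at 3 h, 1116 to 1771 at 6 h and 2683 to 3439 at 12 h. It gave 85 to 323 between 6 h and 3 h, 376 to 754 between 12 h and 6 h and 1599 to 2225 between 12 h and 3 h.

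Same-numbered arrays of different groups did not deviate together over all tested genes (correlations of -0.04 to 0.03 over 18 pairs). Of 12 arrays, 4 correlated best with their own number. No pairing by replicate number was seen, though this check could miss a link that affects few genes. Dim probe sets limit Clpx's second probe set, with an SE of 0.33 at 12 h.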
